A study of Mus musculus with 13 samples.

Results

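The proteasome genes of N2a cells, a mouse neuroblastoma line, were examined for R-loops, structures in which an RNA pairs with one DNA strand and displaces the other. Members were all protein-coding entries of the GENCODE vM1 annotation of mouse build mm9 whose name begins with Psm, a letter from a to g and a digit. The rule found 52 entries with 50 different names among 22380 protein-coding entries. Psmd14 and Psmb9 have 2 overlapping entries each. Psmc3ip, a cofactor of meiotic recombination, and Psme2b-ps also match the rule and are not subunits of the particle.

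The proteasome degrades proteins tagged with ubiquitin. Its barrel, the 20S core, is built of alpha rings that gate the entrance and beta rings that carry the proteolytic sites. The 19S regulatory particle caps the barrel, binds and strips ubiquitin chains, and uses a ring of ATPases to unfold the substrate and feed it in. Lymphoid and interferon-treated cells replace the catalytic beta subunits by immune forms, the thymic cortex uses its own form, and dedicated chaperones assemble both particles. Subunits of the constitutive particle are made in nearly all cells, and NFE2L1 raises their transcription when proteasome activity is short.

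R-loops were captured by DRIP-seq, in which genomic DNA cut with a mixture of XbaI, SspI, HindIII, EcoRI and BsrGI was pulled down with the S9.6 antibody against RNA-DNA hybrids. The cells had received scramble siRNA (siScramble) or siRNA against DDX1, a putative RNA helicase (siDDX1), or EXOSC3, a cap subunit of the RNA exosome (siEXOSC3), and all were otherwise untreated N2a cells. There were 3 libraries per group and 1 further library per group from DNA digested with RNase H, which destroys the RNA of hybrids. Each group is 1 cell line grown on separate plates, so p-values describe the spread between plates of 1 line. The design asks whether depleting either protein alters R-loops at the same genes.

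The labels of the deposited peak lists are in conflict. In 12 of 12 lists, the treatment in the peak names differs from that in the sample title, always by the same rotation. Lists titled siScramble carry siDDX1 in their peak names, those titled siDDX1 carry siEXOSC3, and those titled siEXOSC3 carry siScramble. Groups here follow the titles and are named as in the titles ("labelled"). Under the peak names, siDDX1 minus siScramble would become siEXOSC3 minus siDDX1, siEXOSC3 minus siScramble would become siScramble minus siDDX1, and siEXOSC3 minus siDDX1 would become siScramble minus siEXOSC3. Neither the test across the 3 groups nor the RNase H test depends on which name is right. The 9 untreated lists held 23882 to 42571 peaks and the RNase H lists 3811 to 8034. Read depth is unknown here, and a peak call shows only that a region passed the caller's threshold in that library. Ddx1 itself had 1925, 4062 and 4373 bases under peaks in siScramble, 5033, 2013 and 2603 in siDDX1, and 2344, 2746 and 3093 in siEXOSC3. Exosc3 had peaks in 4 of 9 untreated libraries, with 601 bases in siScramble replicate 3, 338 in siDDX1 replicate 1, and 316 and 810 in siEXOSC3 replicates 2 and 3. Peaks do not measure transcripts, so neither gene checks the labels. Among marker genes of sympathetic neuroblasts, Hand2, Chga and Tubb3 had a peak in 9 of 9 untreated libraries, Dbh and Stmn2 had none, Gata3 had one in 1 library, and 0 of 6 markers of liver, muscle, blood, endothelium and fibroblasts had one in any.

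Proteasome genes carried peaks in most libraries. A gene was counted as called in a library when a peak overlapped its bounds extended by 1 kb. By this rule 29 of the 52 members (55.8%) were called in 9 of 9 untreated libraries, against 26.2% of all protein-coding genes, 16 in 1 to 8, and 7 in none (13.5% against 50.1%). The median length of members was 11.3 kb, against 15.4 kb for all genes. Between 34 and 43 members were called per untreated library, with a group mean and SD of 39.0 ± 4.58 for the libraries labelled siScramble, 38.0 ± 2.00 for siDDX1 and 38.7 ± 0.577 for siEXOSC3 (n = 3 each). The spread within siScramble exceeded the distance between any of the means. Within 1 kb of the annotated start, 11 members (21.2%) were called in 9 of 9, against 11.2% of all genes. These shares describe the members and were not tested, because the genes were chosen as a family.

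Constitutive core genes were called in most libraries. Of the 8 alpha genes, which form the outer rings, 5 were called in 9 of 9 libraries (Psma1, Psma3, Psma4, Psma5 and Psma7). Psma6 was called in 8, Psma2 in 7, and Psma8, the testis form, in none. Of the 7 constitutive beta genes, 6 were called in 9 of 9, among them Psmb5, Psmb6 and Psmb7 (the beta5, beta1 and beta2 subunits with the catalytic sites), and Psmb4 was called in 8. The calls of Psma2 cannot be assigned to it alone. In 7 of 7 libraries its peaks lay within 1 kb of its own start and within 1 kb of the start of its neighbour Mrpl32. The highest summit lay inside Psma2 in 4 of the 7 and inside Mrpl32 in 2. No call was left without peaks within 1 kb of the start of Mrpl32, a removal that could not tell the 2 genes apart.

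The immune and thymic beta genes were called less often than the constitutive beta genes. None of the 5 entries was called in 9 of 9 libraries, against 26.2% of all genes. Of the 5, 3 were called in no untreated library (60%, against 50.1% of all genes). The median length of the 5 was 4.25 kb, against 15.4 kb for all genes. Psmb9, the inducible beta1 form, whose 2 entries differ by a few bases, and Psmb11, the thymic form, had 0 covered bases in all 12 libraries. Psmb10, the inducible beta2 form, had 374 covered bases in siScramble replicate 2, 317 in siDDX1 replicate 2, 716 and 1356 in siEXOSC3 replicates 1 and 2, and 0 in the other libraries. Psmb8, the inducible beta5 form, was called in 8 of 9, with 412, 421 and 384 covered bases in the siScramble libraries, 816, 527 and 0 in siDDX1, and 335, 698 and 789 in siEXOSC3. Its peaks formed 1 region at the 3′ end (chr17:34338184-34338999), and in 8 of 8 libraries the highest point lay inside the overlapping entry Gm20496, so the signal cannot be assigned to Psmb8 alone.

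Genes of the regulatory particle were called about as often as the constitutive core. Of 18 entries of the 19S ATPases and other 19S subunits, 14 were called in 9 of 9 libraries and 0 in none. Among the 6 ATPases, Psmc1, Psmc3, Psmc5 and Psmc6 were called in 9 of 9, Psmc4 in 6 and Psmc2 in 2. The other 19S subunits called in 9 of 9 included the scaffolds Psmd1 and Psmd2, the ubiquitin receptor Psmd4, and Psmd7, the partner of the deubiquitinase Psmd14. Psmd14 was called in 3 libraries over its long entry of 88.7 kb and in 1 over the short entry nested in it.

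Of the 7 assembly factors, 1 was called in 9 of 9 libraries. None of the 4 core chaperones Psmg1 to Psmg4 was called in 9 of 9 libraries, and of the 19S chaperones Psmd5, Psmd9 and Psmd10 only Psmd9 was. Psmg3 was called in 7, Psmg1 and Psmd5 in 6, Psmg4 in 4, Psmg2 in 2 and Psmd10, an X-linked gene, in 0. Of the activators, Psme1, Psme3 and Psme4 were called in 9 of 9 and Psme2, the partner of Psme1 in the interferon-inducible 11S cap, in 0. The inhibitor gene Psmf1 was called in 7. Classes hold 2 to 12 entries, so a share within a class moves by large steps.

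**Figure D1:**
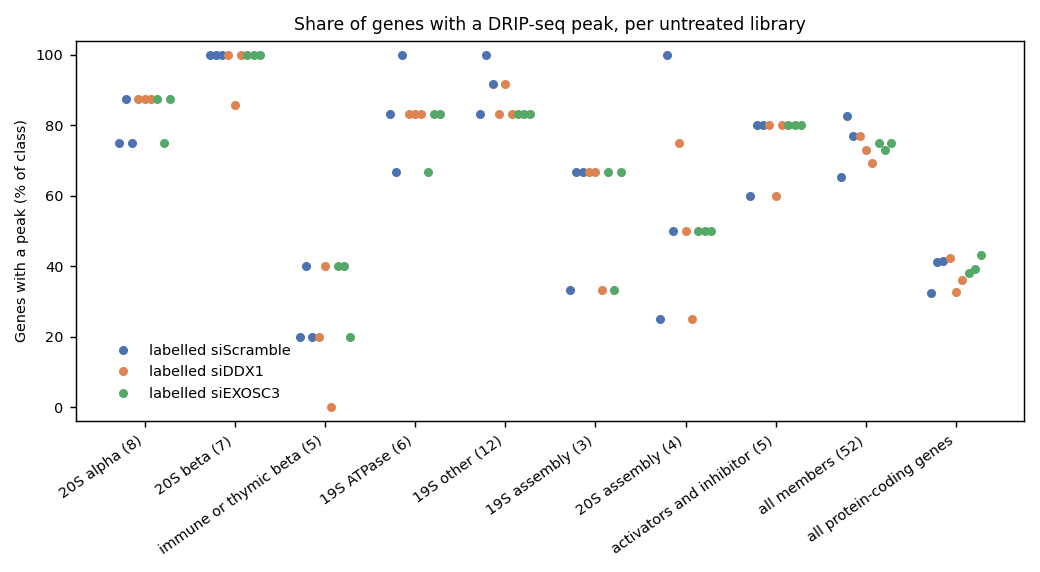
Share of genes with a peak (%, y axis) in each class of proteasome genes (x axis, number of entries in brackets), with 1 point per untreated library coloured by labelled group. Beta genes sit at 85.7% to 100%, immune and thymic beta genes at 0% to 40%, all 52 members at 65.4% to 82.7% and all protein-coding genes at 32.4% to 43.1%.

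**Figure D2:**
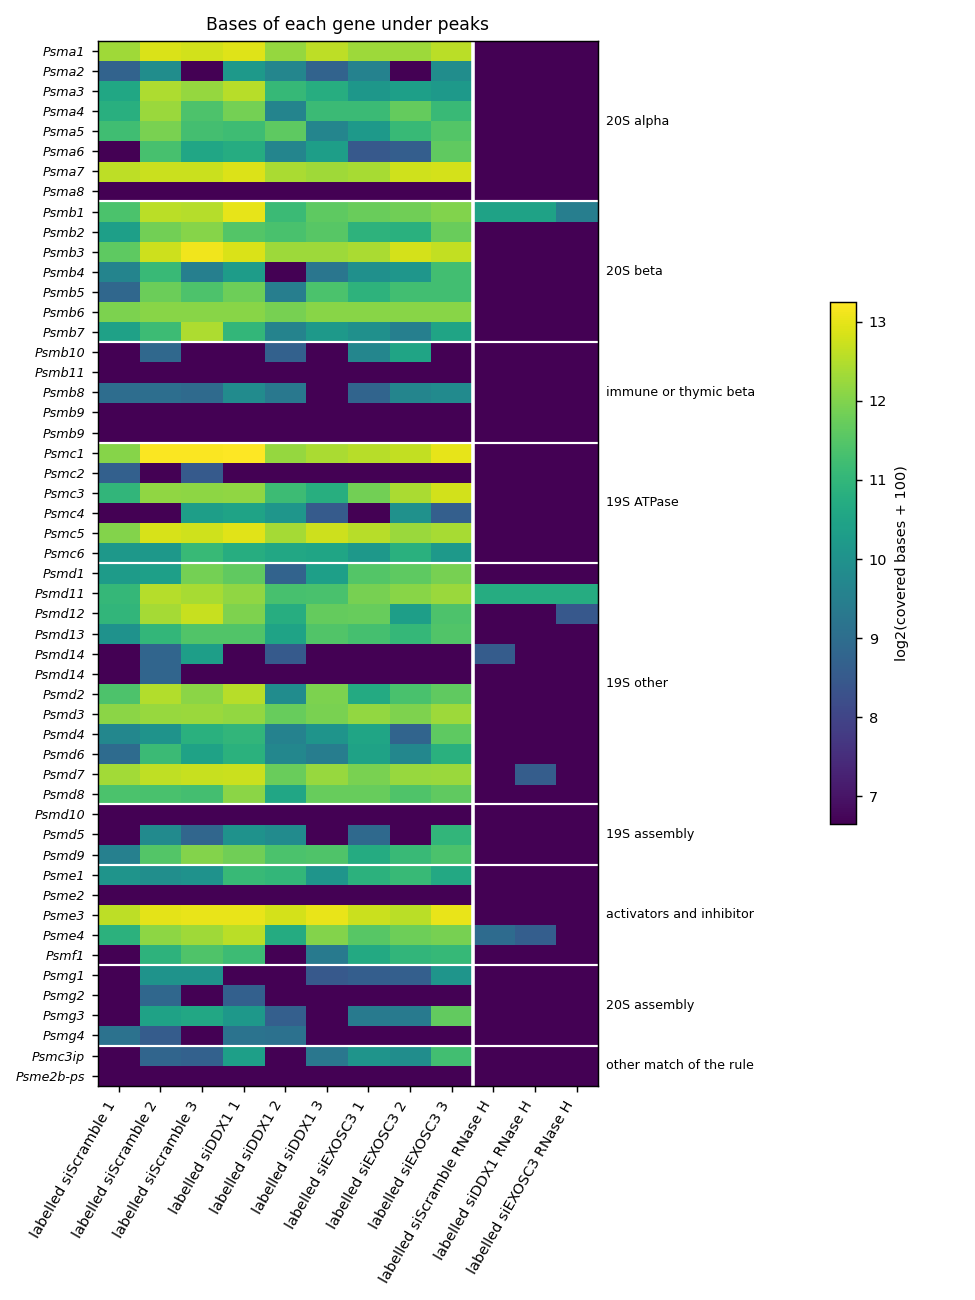
Bases of each of the 52 entries under peaks, as log2(bases + 100), in the 9 untreated and 3 RNase H libraries (columns), with genes ordered by class (rows). Psma7, Psmb6, Psmc5 and Psme3 are bright in 9 of 9 untreated libraries, Psma8, Psmb9, Psmb11, Psmd10, Psme2 and Psme2b-ps are dark in all 12, and among the RNase H columns only Psmb1, Psmd7, Psmd11, Psmd12, Psmd14 and Psme4 show a value.

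Most member peaks did not lie at the start of the gene. Of the peaks over members, 22.5% ± 3.35 lay within 1 kb of the annotated start, 56.8% ± 3.90 in the body and 20.7% ± 2.51 within 1 kb of the end (SD, n = 9 libraries, 1088 peaks over the libraries). For all protein-coding genes these shares were 18.6% ± 2.17, 66.6% ± 2.90 and 14.8% ± 0.932 (SD, n = 9). The highest peak told the same for single members. Among the 29 members called in 9 of 9 libraries, its summit lay within 1 kb of the start in 5 or more libraries for 7 members and in none for 15. This summit was not always the member's own. It lay inside the member in 9 of 9 libraries for 13 of the 29, and inside another gene in 5 or more libraries for 3. Psmc6, a 19S ATPase, was the 1 member whose highest summit stayed within 1 kb of the start in 9 of 9 libraries, from −0.192 to 0.666 kb. Psmd11, a 19S scaffold subunit of 44.6 kb, had its highest summit 41.7 to 43.8 kb downstream in 9 of 9, near the 3′ end.

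The starts called in 9 of 9 libraries belonged to Psma4 and Psma7, Psmb3 and Psmb6, Psmc5 and Psmc6, Psmd3, Psmd6, Psmd7 and Psmd11, and Psme3. Several of these peaks filled the restriction fragment that held the start. At Psmc6 the SspI fragment of 1049 bases (chr14:45949256-45950304, 57.4% G+C) had a peak edge at both ends in 9 of 9 libraries, and was covered whole in 8 and by 76.9% in siEXOSC3 replicate 3. At Psmb6 both edges of the merged region, chr11:70338179-70342429, lay on XbaI sites and came back in 9 of 9, so that 1 fragment of 4251 bases held the whole gene of 2.49 kb. A hybrid anywhere on such a fragment brings down all of it, and the place of the R-loop inside it was not resolved. The letters around the start of Psmc6 (from 250 bases before to 50 after, coding strand, chr14:45949254-45949553, + strand) are shown for this case, and capitals mark a match to the antioxidant response motif described further on.
Psmc6 start window: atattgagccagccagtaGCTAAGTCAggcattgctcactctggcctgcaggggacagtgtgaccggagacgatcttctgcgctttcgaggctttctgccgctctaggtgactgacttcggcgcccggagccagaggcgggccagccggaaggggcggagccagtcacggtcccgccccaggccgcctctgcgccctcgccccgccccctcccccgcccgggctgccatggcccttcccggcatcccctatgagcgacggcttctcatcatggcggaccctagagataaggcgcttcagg

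Cut positions also set peak edges over the rest of the family. In untreated libraries 62.1% ± 4.79 of member peaks had at least 1 edge exactly on a cut of 1 of the 5 enzymes, and 9.28% ± 3.77 had both, against 56.0% ± 3.81 and 7.08% ± 1.22 of all peaks (SD, n = 9). The following stretches of 24 bases (mm9, + strand) are centred on the edges of 3 peaks, and the recognition sites are in capitals: EcoRI at both edges of the peak over the start of Psme4, the gene of the nuclear activator PA200, found in 8 (left) and 7 (right) untreated libraries, EcoRI at both edges of a peak of Psmd11, and BsrGI and HindIII at the edges of a peak of Psmb1, the last 2 from RNase H libraries.
Psme4 start peak left edge (chr11:30671121-30671144): gccttcatttaGAATTCccaggta
Psme4 start peak right edge (chr11:30672846-30672869): tgtcttaGAATTCtaggaaaagtg
Psmd11 RNase H peak left edge (chr11:80274383-80274406): ggtggtcagagGAATTCtctgaca
Psmd11 RNase H peak right edge (chr11:80276002-80276025): cacaatgGAATTCtggttaatagt
Psmb1 RNase H peak left edge (chr17:15631296-15631319): atccaaacataTGTACAaacacaa
Psmb1 RNase H peak right edge (chr17:15632602-15632625): aaaaagcAAGCTTttcttttcttc

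**Figure D3:**
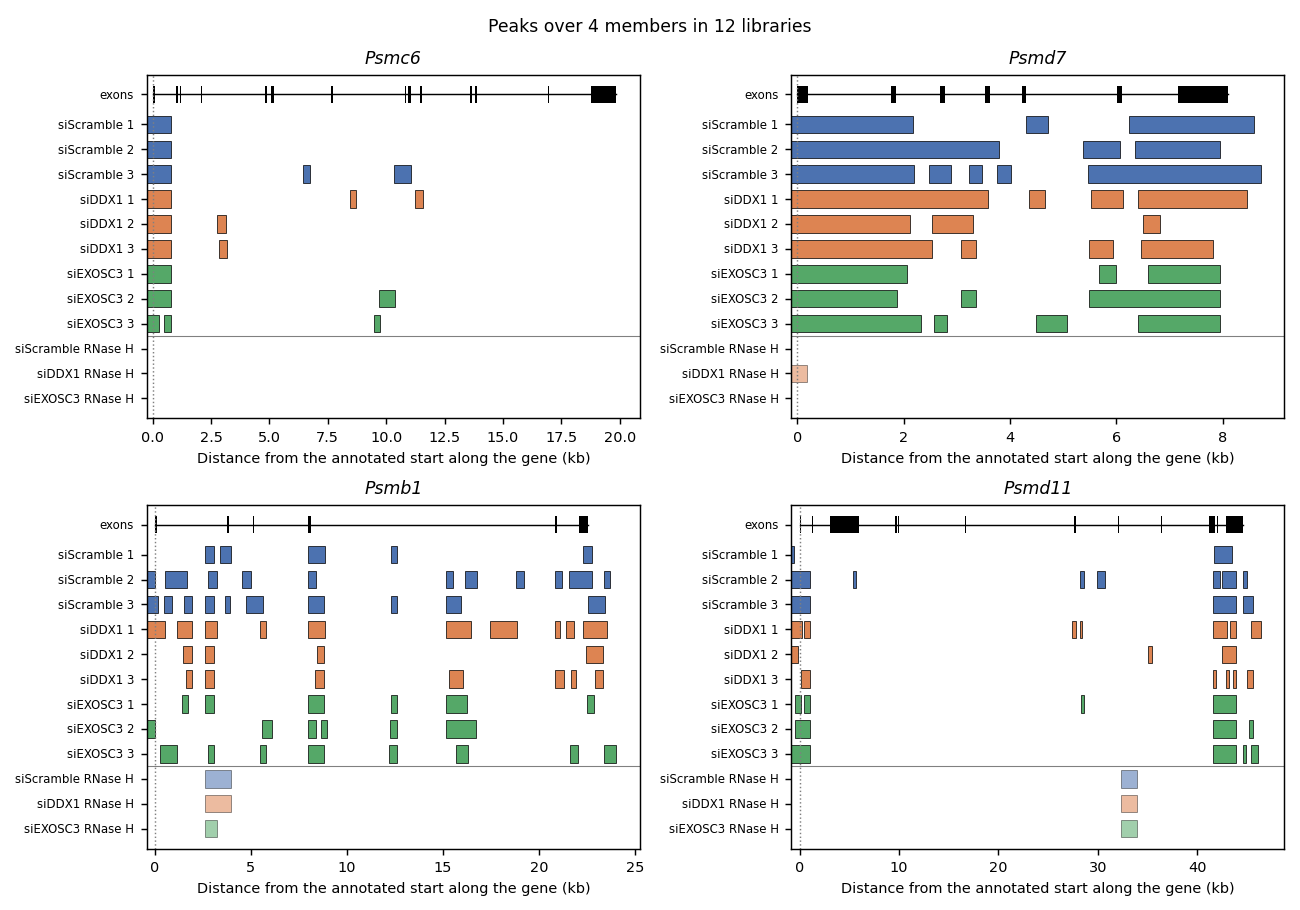
Peaks (bars) over Psmc6, Psmd7, Psmb1 and Psmd11 in 9 untreated and 3 RNase H libraries (rows, coloured by labelled group, paler for RNase H) against distance from the annotated start along the gene (kb, dotted line at 0), with exons in black. Psmc6 and Psmd7 have a peak at the start in 9 of 9 untreated libraries, Psmb1 keeps a peak near 3 kb in 3 of 3 RNase H libraries, and the RNase H peak of Psmd11 appears in no untreated library.

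The level of enrichment was given by the fold enrichment at the summit of a gene's highest peak, a linear ratio over local background from the peak caller. The 5 members with the largest mean over 9 libraries were Psme3, Psma7, Psmc5, Psmd7 and Psmc6. For the 29 members called in 9 of 9 libraries the median of the mean was 9.32, below the 10.3 of all genes called in 9 of 9, so the family was widely called but not strongly enriched.

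Psme3, the gene of the nuclear activator PA28 gamma (chr11:101177527-101184851, + strand), reached 16.4, 26.6 and 34.8 in siScramble, 20.5, 14.2 and 22.6 in siDDX1, and 17.6, 12.8 and 36.7 in siEXOSC3. The groups overlapped, with a mean of 22.5 ± 8.63 (SD, n = 9). In 9 of 9 libraries this summit lay 9.01 to 11.9 kb from the start, beyond the 7.33 kb gene and inside the next gene, Aoc2. Over the start of Psme3 itself the peaks averaged 8.10.

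Psma7, an alpha ring gene (chr2:179771078-179777138, − strand), reached 11.1, 13.01 and 12.7 in siScramble, 18.7, 8.61 and 10.4 in siDDX1, and 23.1, 14.6 and 32.1 in siEXOSC3. The 3 siEXOSC3 values lay above the 3 siScramble values. In 6 of 9 libraries, the 3 labelled siEXOSC3 among them, the summit lay within 1 kb upstream of the start and inside Ss18l1, which is annotated there, so this signal is shared with that gene.

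Psmc5, an ATPase (chr11:106117468-106124434, + strand), reached 14.6, 17.0 and 19.3 in siScramble, 16.1, 13.9 and 16.6 in siDDX1, and 11.6, 10.8 and 17.1 in siEXOSC3. The groups overlapped in the folds as called, and contrasts with library medians set equal are given further on. The summit of Psmc5 lay 2.88 to 7.37 kb from the start, inside the gene in 8 of 9 libraries.

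Psmd7 (chr8:110104281-110112382, − strand) reached 14.7, 20.4 and 16.9 in siScramble, 20.1, 8.61 and 14.9 in siDDX1, and 14.3, 9.17 and 17.1 in siEXOSC3, with summits either 0.038 to 0.041 kb or 1.87 kb from the start. Psmc6 (chr14:45949504-45969367, + strand) had the smallest SD of the 5 (2.49, n = 9), with 11.1, 14.2 and 10.8 in siScramble, 17.5, 11.7 and 12.3 in siDDX1, and 13.7, 11.01 and 16.7 in siEXOSC3. In both genes each group overlapped the other groups in the folds as called.

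**Figure D4:**
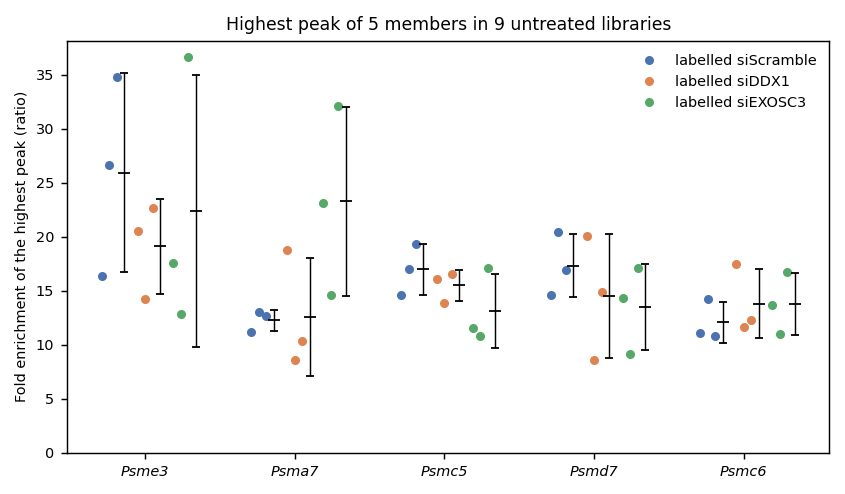
Fold enrichment at the summit of the highest peak (linear ratio, y axis from 0) for 5 members (x axis), with 1 point per untreated library and the mean ± SD of each labelled group (n = 3) as a black bar. Psme3 spans 12.8 to 36.7, and at Psma7 the siEXOSC3 points lie at 14.6 to 32.1 and the siScramble points at 11.1 to 13.01.

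Few members were called in 1 group and not in another. An all-or-none change, with 3 of 3 libraries called on one side and 0 of 3 on the other, occurred at 0 members, against 0.97% of all genes over all pairs. With at least 2 of 3 libraries against 0 of 3, 3 members appeared. Psmc2, the ATPase RPT1, had 305, 0 and 265 covered bases in siScramble and 0 in the 6 other untreated libraries. Psmg4, a core chaperone, had 464, 281 and 0 in siScramble, 477, 454 and 0 in siDDX1 and 0 in all 3 siEXOSC3 libraries, from peaks upstream of the start (chr13:34254209-34254685). Psmd14, the deubiquitinase, had 0, 348 and 1202 in siScramble, 0, 267 and 0 in siDDX1, and 0 in siEXOSC3.

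Most of these calls rested on folds under 5. Each of the 2 peaks of Psmc2 lay at a different place, with folds of 4.68 and 4.80, the 4 of Psmg4 had folds of 4.30 to 4.95, and those of Psmd14 had their highest folds of 4.95, 7.80 and 4.30 at 5.55, 79.0 and 79.8 kb from the start in siScramble replicates 2 and 3 and siDDX1 replicate 2. By direction, 1 member was called in siScramble and not in siDDX1 (0.979% of all genes), 3 in siScramble and not in siEXOSC3 (0.639%) and 1 in siDDX1 and not in siEXOSC3 (0.492%). In the reverse directions there were 0 members, against 0.563% of all genes for siDDX1 and not siScramble, 1.32% for siEXOSC3 and not siScramble and 1.4% for siEXOSC3 and not siDDX1. With peaks of −log10 q of at least 5, 0 of the 3 members were left.

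The length under peaks did not separate the 3 groups. For each gene, log2(covered bases + 100) was compared across the groups with an F statistic and the exact permutation test over the 280 assignments of libraries to groups. Of 11103 genes tested, 0 passed after Benjamini-Hochberg adjustment (0% of genes) and 292 had an unadjusted exact p under 0.05 (2.63%). Of the 45 members tested, 0 had an unadjusted p under 0.05. The smallest p that the 280 assignments allow is 0.00357, so adjusted calls could only come from many genes at that limit.

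The member with the largest F was Psme1, the PA28 alpha activator (chr14:56196960-56200366, + strand). It had 961, 857 and 938 covered bases in siScramble, 2084, 1965 and 996 in siDDX1, and 1788, 2084 and 1483 in siEXOSC3. All siDDX1 and siEXOSC3 values lay above the 3 siScramble values (exact permutation p = 0.0714). Without siDDX1 replicate 3, the lowest of that group, the unadjusted p was 0.0179. Psma3, an alpha gene, had 1442, 5401 and 4601 in siScramble, 5858, 2032 and 1643 in siDDX1, and 1030, 1234 and 1075 in siEXOSC3 (exact permutation p = 0.0929). Its siEXOSC3 values lay below all others. The other members among the 10 largest F values, Psmc2, Psmd14 and Psmg4 of the preceding comparison among them, had unadjusted exact permutation p of 0.136 to 0.286.

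Psmb7 (beta2) had 1265, 2205 and 5462 covered bases in siScramble, 1959, 682 and 1062 in siDDX1, and 898, 621 and 1351 in siEXOSC3. Psmd3, a 19S scaffold subunit, had 4267, 4753 and 4758 in siScramble, 4542, 3244 and 3801 in siDDX1, and 4566, 3895 and 4882 in siEXOSC3. Psmc3, an ATPase, had 1940, 4462 and 4404 in siScramble, 4419, 2215 and 1663 in siDDX1, and 3600, 5324 and 7072 in siEXOSC3. In each of the 3 genes the groups overlapped, and Psmd3 stayed within 3244 to 4882 bases. The low-level genes had libraries at 0 in several groups. Psmc3ip had 0, 345 and 315 covered bases in siScramble, 1234, 0 and 510 in siDDX1, and 962, 840 and 2344 in siEXOSC3. Psmg1, a core chaperone, had 0, 943 and 943 in siScramble, 0, 0 and 258 in siDDX1, and 294, 303 and 982 in siEXOSC3. The siEXOSC3 values of Psmc3ip lay above all 3 siScramble values, and those of Psmg1 above all 3 siDDX1 values, while the other pairs of groups overlapped.

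Summit fold enrichment between groups was tested with limma on log2 values of the 5868 genes called in 9 of 9 libraries, 29 of them members, after each library's median had been set equal. For siDDX1 minus siScramble, 0 genes passed an adjusted p of 0.05 (0%), with 458 at an unadjusted p under 0.05. For siEXOSC3 minus siScramble 22 genes passed (0.375%), and for siEXOSC3 minus siDDX1 31 genes (0.528%). No member was among them in any contrast. At an unadjusted p under 0.05 there were 2, 6 and 5 members, against 7.81%, 14.8% and 16.0% of all genes tested.

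The differences were small for the family. The median member difference was 0.01, −0.10 and −0.13 on the log2 scale for the 3 contrasts in that order, and the medians of all genes were 0.01, 0.00 and −0.01. Members were higher in 15 and lower in 14, higher in 10 and lower in 19, and higher in 8 and lower in 21. All 3 signs depended on the centring, since without it the counts were 11 and 18, 16 and 13, and 24 and 5. Without it the member medians were −0.12, 0.03 and 0.14 and those of all genes −0.13, 0.13 and 0.26, so that in the last 2 contrasts members lay below all genes under both scalings. The median half-width of the 95% interval was 0.44, before any adjustment over genes. Larger differences of single members, up to 0.72, did not pass after adjustment, so changes above 0.44 in a single gene could have gone unseen.

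The members with an unadjusted p under 0.01 were looked at after their values were known. Psma1, an alpha gene, reached 8.20, 13.6 and 10.8 in siScramble, 16.1, 15.4 and 12.3 in siDDX1, and 8.08, 11.01 and 14.8 in siEXOSC3. Its differences were 0.58 ± 0.20 (SE) for siDDX1 minus siScramble (limma, adjusted p = 0.488) and −0.68 ± 0.20 for siEXOSC3 minus siDDX1 (limma, adjusted p = 0.109). Psma7 differed by 0.72 ± 0.22 between siEXOSC3 and siScramble (limma, adjusted p = 0.123), and 5 of the 6 summits in this contrast lay in Ss18l1. Psmc5 differed by −0.52 ± 0.18 in the same contrast (limma, adjusted p = 0.176), and by 0.05 when only peaks within 1 kb of the start were taken.

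Psmd3 reached 9.32, 14.8 and 14.4 in siScramble, 10.9, 6.76 and 9.07 in siDDX1, and 16.2, 10.96 and 24.7 in siEXOSC3. Its siEXOSC3 values lay above its siDDX1 values, by 0.63 ± 0.20 (limma, adjusted p = 0.130). Psma3 reached 5.86, 8.05 and 6.02 in siScramble, 6.54, 6.76 and 7.12 in siDDX1, and 4.97, 5.50 and 5.59 in siEXOSC3. Its siEXOSC3 values were the lowest of the 9, with a difference from siDDX1 of −0.62 ± 0.20 (limma, adjusted p = 0.142). Psmd8, a 19S lid subunit, reached 8.20, 10.2 and 8.14 in siScramble, 12.7, 9.84 and 10.4 in siDDX1, and 9.52, 15.3 and 21.5 in siEXOSC3. It differed by 0.60 ± 0.21 between siEXOSC3 and siScramble (limma, adjusted p = 0.176), whose folds overlapped before the library medians were set equal. The highest summit lay inside another gene, Ggn, in 7 of 9 libraries, the 3 labelled siEXOSC3 among them. It lay inside Psmd8 only in siScramble replicates 2 and 3, so this contrast cannot be assigned to Psmd8 alone. Against siDDX1, siEXOSC3 differed by −0.54 ± 0.18 at Psmc5 (limma, adjusted p = 0.148) and by 0.63 ± 0.22 at Psma7 (limma, adjusted p = 0.160). None of these passed.

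**Figure D5:**
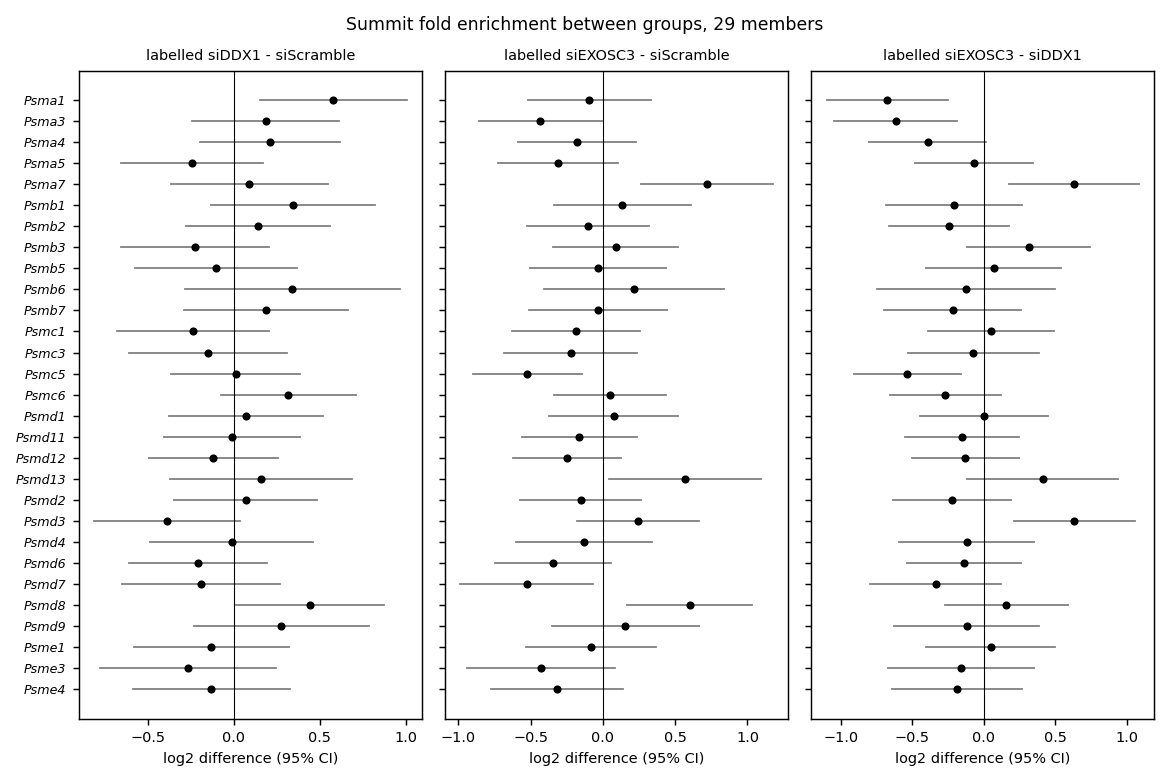
Difference in log2 summit fold enrichment (x axis, points) with its 95% confidence interval (lines) for the 29 members called in 9 of 9 untreated libraries (rows), in the 3 contrasts of labelled groups. The intervals of Psma1, Psma7, Psmc5 and others leave 0 in single contrasts, and no member passed after adjustment over 5868 genes.

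RNase H removed most of the signal over members. The RNase H libraries of siScramble, siDDX1 and siEXOSC3 held a peak over 4, 4 and 3 members, against 34 to 43 in untreated libraries. The drop in log2(covered bases + 100) was tested by the exact permutation of the RNase H label within groups (64 assignments, two-sided). Of 45 members tested, 29 were lower (exact permutation p = 0.0156, adjusted p = 0.0319, the smallest possible), where 46.9% of the 12124 genes tested were called lower. The 29 were the same 29 that were called in 9 of 9 untreated libraries, and a gene with an untreated library at 0 could not reach that p, so the count adds nothing to the calls. Their median was −4.57 on the log2 scale, against −4.97 for all genes called in 9 of 9. A digested library with no peak over a gene gives a value set by the added 100 bases.

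A peak survived RNase H, or appeared with it, at 6 members (11.5%, against 13.5% of all genes in at least 1 RNase H library): Psmb1, Psmd7, Psmd11, Psmd12, Psmd14 and Psme4. At Psmb1, a beta ring gene, the peak lay at chr17:15631308-15632613, overlapping an exon, in the RNase H libraries of siScramble and siDDX1, with folds of 27.4 and 15.7. In that of siEXOSC3 it covered the intronic part at chr17:15632011-15632613, with a fold of 19.8. The same place was called in 8 of 9 untreated libraries, with folds of 8.20, 8.67 and 6.60 in siScramble, 16.1, 7.38 and 7.77 in siDDX1, and 10.6 and 7.08 in siEXOSC3 replicates 1 and 3. Each untreated value lay below that of the digested library of its group, apart from siDDX1 replicate 1. Each fold is relative to its own library, and the digested libraries have no replicates. Over the whole gene, Psmb1 had 2585, 5991 and 5748 covered bases in siScramble, 8079, 2188 and 3044 in siDDX1, and 3340, 3524 and 3988 in siEXOSC3, against 1306, 1306 and 603 after RNase H in that order. The covered length fell by 1.86 on the log2 scale (exact permutation p = 0.0156, adjusted p = 0.0319).

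Psmd11 had the opposite pattern. An intronic EcoRI fragment (chr11:80274395-80276013, 1619 bases, 40.5% G+C), whose edges are printed above, was called in 3 of 3 RNase H libraries with folds of 8.48, 5.44 and 8.00 and in 0 of 9 untreated libraries. Its longest run of pyrimidines was 56 bases. Untreated libraries had 2027, 5796 and 5219 covered bases over Psmd11 in siScramble, 4459, 2492 and 2499 in siDDX1, and 3723, 4257 and 4761 in siEXOSC3, and each digested library had the 1619 of this fragment. The length under peaks fell by 1.15 on the log2 scale (exact permutation p = 0.0156, adjusted p = 0.0319), the least of the 29. Without siScramble replicate 3 the fall was 1.08 and did not pass after adjustment.

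The other RNase H peaks were each in 1 library. At Psmd14 an intronic peak of 281 bases (chr2:61628913-61629193, fold 4.24, RNase H library of siScramble) overlapped a peak of 1 untreated library. It is printed on the + strand, which is the coding strand, because it holds stretches of triplet repeats. Capitals mark its longest run without a purine, of 100 bases.
Psmd14 RNase H peak: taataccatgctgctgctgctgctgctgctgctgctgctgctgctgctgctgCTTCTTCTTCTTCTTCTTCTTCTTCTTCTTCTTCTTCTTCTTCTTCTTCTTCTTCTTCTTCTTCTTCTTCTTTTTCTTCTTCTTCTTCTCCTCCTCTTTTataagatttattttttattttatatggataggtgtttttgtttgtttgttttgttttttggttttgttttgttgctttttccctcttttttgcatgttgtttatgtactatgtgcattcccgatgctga

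At Psmd7 the RNase H peak covered the start (chr8:110112206-110112491, fold 6.23, RNase H library of siDDX1) and ended on a HindIII cut, where peaks of 9 of 9 untreated libraries ended too, with folds of 8.61 to 20.4. It is shown on the coding strand (− strand) as the 1 member start with a call after digestion, with 66.1% G+C, and capitals mark the part of the HindIII site left on the fragment.
Psmd7 RNase H peak: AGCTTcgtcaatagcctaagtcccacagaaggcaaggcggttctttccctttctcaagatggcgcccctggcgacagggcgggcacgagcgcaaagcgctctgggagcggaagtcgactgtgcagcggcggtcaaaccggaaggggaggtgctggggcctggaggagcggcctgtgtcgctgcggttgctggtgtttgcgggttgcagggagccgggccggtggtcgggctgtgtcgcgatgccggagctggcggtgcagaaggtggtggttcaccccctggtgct

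Psme4 had 1 intronic peak in the RNase H library of siScramble (fold 5.36) and another in that of siDDX1 (fold 5.79), and Psmd12, a 19S lid subunit, had 1 over an exon in that of siEXOSC3 (fold 4.53). Of these, the first Psme4 site and the Psmd12 site were also called in 3 untreated libraries each, and the second Psme4 site in 0.

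G+C content was higher at called than at uncalled starts, in members and in all genes. Over the 500 bases after the start on the coding strand, members with a start called in 9 of 9 libraries had a median of 68.0% G+C (n = 11), those called in 1 to 8 had 62.4% (n = 22) and those called in 0 had 58.2% (n = 19). For all genes the same classes had 66.6%, 64.4% and 53.2%. GC skew, the excess of G over C as a share of both, had medians of 0.114, 0.102 and 0.00658 in members and 0.0685, 0.0625 and 0.0311 in all genes. The start of Psmc4 had the largest skew of the family at 0.352 and was called in 0 libraries, and Psmb6, next at 0.338, was called in 9. These are descriptions, with no test.

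The core of the antioxidant response element, bound by NFE2L1 and NFE2L2, was searched as TGACNNNGC and, for the other strand, GCNNNGTCA from 250 bases before to 50 after each start. It was found at 7 of 52 members (13.5%), against 12.5% of windows of the same length at all genes. At members with a start called in 9 of 9 libraries it was found at 3 of 11, in 1 to 8 at 4 of 22, and in 0 at 0 of 19. Over all genes the shares in these classes were 15.5%, 14.1% and 11.4%. The matches are shown with 10 bases on either side on the coding strand of the gene, in capitals, with the position of the first base relative to the start.
Psmb6 (coding strand, first base at −19): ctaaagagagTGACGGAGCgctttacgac
Psmd12 (other strand, first base at −203): gagatgttctGCTGTGTCAcatttgcccc
Psmc6 (other strand, first base at −232): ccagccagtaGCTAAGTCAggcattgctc
Psmb5 (coding strand, first base at −28): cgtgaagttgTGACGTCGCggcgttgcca
Psmb2 (coding strand, first base at −1): gccgcgccagTGACTGGGCcgtcgcgcgt
Psmd9 (coding strand, first base at −31): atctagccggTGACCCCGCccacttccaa
Psmd7 (other strand, first base at −108): tcaatgccaaGCTTCGTCAatagcctaag

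In Psmb5, Psmb6 and Psmd9 the match began 19 to 31 bases before the start and in Psmb2 it spanned the start, while in Psmc6, Psmd7 and Psmd12 it lay further upstream, on the other strand. A match is a run of letters and not a measured binding site.

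Other genes of the ubiquitin-proteasome pathway were called in more libraries than the members. Of a list of 32, 25 (78.1%) were called in 9 of 9 libraries, against 26.2% of all genes, with a longer median length of 24.2 kb. At the start, 19 (59.4%) were called in 9 of 9, against 11.2% of all genes. The 25 included the regulators Nfe2l1, Nfe2l2, Ddi2 and Akirin2, the core chaperone Pomp, the ubiquitin gene Ubb, and the unfoldase Vcp. Of these, Pomp was called at its start in 0 libraries. Ngly1, which processes NFE2L1, and Fbxo7 were called in 0. Ubb, a gene of polyubiquitin, had 3972 covered bases in 8 of 9 libraries and 3902 in siEXOSC3 replicate 3. In limma 0 of the 25 passed in any contrast, with a smallest adjusted p of 0.102 (siEXOSC3 minus siScramble).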

How the data were processed

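Per the labels and the study's methods, the authors aligned reads to mm9 with Bowtie2 2.4.4 and called peaks in each DRIP-seq library separately with MACS2 2.2.6 against an input library, which was not analysed here. The deposited peak lists give a display score (not used), the fold enrichment at the summit (a ratio over local background), and p-value and q-value columns as −log10, all written by the authors' caller. The authors' read-level test (DESeq2, with regions annotated by HOMER 4.11) was not repeated, since reads per region were not used here.

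Members and lists were chosen with earlier results of these data known. Genes with a peak, covered bases and the highest summit fold were taken over gene bounds extended by 1 kb, in Python with numpy and pysam. Covered bases were tested with exact permutation tests and summit folds with limma 3.58.1 in R 4.3.3, on log2 values, with Benjamini-Hochberg adjustment over all genes. The tests were run on simulated data with the same spread for all genes. There limma recovered 200 of 200 genes changed by 2 on the log2 scale between siDDX1 and siScramble, with 14 false calls among 5868 genes. The largest member difference in the data was 0.72, so this recovery does not show what could be found at such sizes. Named genes were the 5 highest in summit fold, the 10 largest F values, members called in 1 group and not in another, members with an RNase H peak, and the immune, thymic and testis forms, with additions marked as such. Sequences came from the mm9 genome. Peak lists carry no read totals, so the depth behind a value is unknown and no interval for counting error can be given. Some genes of the marker and pathway lists are not reported here by name.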

Additional observations from a re-analysis of the deposited data

How the results depend on the processing

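The count of 29 members called in 9 of 9 untreated libraries was 11 when only 1 kb around the start was taken, and ranged from 29 to 30 with 1 library left out. Leaving out peaks within 1 kb of another gene's start, an alternative added after seeing the data and run on members only, gave 26. Psmd13 was then called in 5 libraries, Psma4 in 7 and Psma7 in 8. The count of 3 members called in 1 group and not in another was 5 around the start only, 0 with −log10 q of at least 5 and 1 with equal peak numbers, and 2 to 4 with 1 library left out. The count of 0 members at an unadjusted p under 0.05 across the 3 groups was 1 with −log10 q of at least 5 (Psma3), 1 with equal peak numbers (Psma3) and 1 with bounds not extended (Psmc3ip). With 1 library left out it was 0 to 2: Psma3 without siScramble replicate 1, Psmc2 without siScramble replicate 2, Psmb4 without siDDX1 replicate 1, Psmc3ip and Psmd8 without siDDX1 replicate 2, and Psme1 without siDDX1 replicate 3. Psma3 had an exact permutation p of 0.0393 and 0.0357 under the first 2 settings, and the p of Psme1 ranged from 0.0179 to 0.129 with 1 library left out. The difference of Psmc5 between siEXOSC3 and siScramble turned from −0.52 to 0.0542 when only peaks within 1 kb of the start were taken. The RNase H effect at Psmd11 was −0.85 with −log10 q of at least 5 and −0.79 with bounds not extended, and did not pass after adjustment in either, nor without siScramble replicate 3 (−1.08). The causes were not tested.

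In the main fit, replicate numbers were not used to pair libraries across groups. Correlations of same-numbered libraries ranged from −0.11 to 0.13 over 9 pairs, and those of differently numbered libraries from −0.21 to 0.17 over 18. These ranges cannot show whether the plates were paired. With the replicate number as a block, limma called 0 members, and 0, 25 and 37 genes instead of 0, 22 and 31 in the 3 contrasts. The count of members called by limma was 0 in every alternative run. Genes called for siEXOSC3 minus siScramble fell to 9 without centring and to 14 with quantile normalization. With −log10 q of at least 5 there were 3, 13 and 35 genes. The 0 genes for siDDX1 minus siScramble became 2 with log2(ratio + 1). With 1 library left out the genes called ranged from 0 to 7 (without siDDX1 replicate 1) for siDDX1 minus siScramble, from 0 (without siScramble replicate 3) to 24 for siEXOSC3 minus siScramble, and from 5 (without siEXOSC3 replicate 2) to 76 (without siDDX1 replicate 1) for siEXOSC3 minus siDDX1, with no member among them. Peak calls limit what is seen, since a gene below the caller's threshold has no value.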
